A study of Mus musculus with 45 samples.

Results

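The clustered histone genes are the protein-coding genes whose symbols in the deposited tables begin with Hist1h, Hist2h, Hist3h or Hist4h. The tables hold 63 of them among 28196 genes, of which 17043 are protein-coding. There are 5 genes for the linker histone H1, 16 for H2A, 17 for H2B, 12 for H3 and 13 for H4. Of the 63, 50 lie in the Hist1 cluster on chromosome 13, 10 in Hist2 on chromosome 3, 2 in Hist3 on chromosome 11, and 1 is Hist4h4. GENCODE M21 lists 67 such genes, and the other 4 were not analysed here.

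RNA was measured by sequencing in 45 libraries of mouse B cells that were taken fresh or driven towards plasma cells in culture, 3 libraries for each of 15 groups. The 2 genotypes were wild type and Prdm1Δex1A (dEx1A), a C57BL/6 line named for a deletion of exon 1A in Prdm1, the gene for the plasma cell regulator Blimp-1. Wild-type day 0 cells were splenic B2 cells at over 95% purity. In the TLR culture the cells grew on irradiated L-cell feeders that carry CD40L, with lipopolysaccharide (LPS, 5 µg/mL) and with IL-4 and IL-5, 2 cytokines given at 50 ng/mL each. The BCR culture replaced LPS by an F(ab')2 antibody against IgM and IgG at 12 µg/mL, on the same feeders and with the same cytokines. Cells were taken off the feeders on day 2. The TLR and BCR cultures sampled at day 7 or 10 received 2 further cytokines, IL-6 (10 ng/mL) and APRIL (100 ng/mL). Lipids and amino acids were added with them, beginning with day 4. Neither cytokine is listed for the samples taken at day 4. What the LPS culture held besides LPS is not given in the sources used here.

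Wild-type TLR and BCR cells were sampled at days 4, 7 and 10, and all other cultured groups at days 4 and 7. Cells of the wild-type day 0, TLR and BCR groups came from 7-week-old males, and those of the wild-type LPS groups and of every dEx1A group from 9-week-old females. Genotype therefore cannot be told apart from sex and age in the TLR and BCR cultures. The LPS culture compares genotypes within the same sex and age, but its wild-type cells differ from day 0 cells in both. The labels do not tie the 3 libraries in a group to separate animals, and p-values measure the spread between these libraries, which may be technical.

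Histones package DNA in the nucleus: H2A, H2B, H3 and H4 form the nucleosome core, and H1 binds the linker DNA between cores. Most messages of the clustered genes are made in S phase, carry no poly(A) tail, and end in a stem-loop that the stem-loop binding protein SLBP holds. Some clustered genes also give polyadenylated messages, known from differentiated or resting cells, when transcription runs past the stem-loop to a poly(A) signal. Activated B cells divide quickly and leave the cell cycle as they become plasma cells.

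A stem-loop of the form GGNNCTTTTNAGNNCC (N is any base), searched on the sense strand only, was found in the annotated models of 42 of the 63 genes. It stood in 45 of their 68 protein-coding transcript models (66.2%). Of all 58797 protein-coding transcript models of the annotation, which include these, 0.167% held it. Some member models, such as those of Hist1h1b and Hist1h4k, have 0 bases after the stop codon, so the element could not be found there. The element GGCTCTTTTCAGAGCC stood in 25 members. Another 7 held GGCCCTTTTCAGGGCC, 5 held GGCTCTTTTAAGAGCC and 2 held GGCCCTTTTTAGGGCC. The following sequences, written 5′ to 3′ with the element in capitals, show the forms found in members on which the results turn. All coordinates are those of GRCm38.
Hist1h1c, chr13:23739507-23739532, plus strand: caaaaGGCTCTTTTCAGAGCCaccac
Hist3h2a, chr11:58955167-58955192, plus strand: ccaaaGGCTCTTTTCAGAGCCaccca
Hist2h2aa2, chr3:96239779-96239804, minus strand: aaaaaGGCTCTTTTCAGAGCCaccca
Hist1h3c, chr13:23745042-23745067, minus strand: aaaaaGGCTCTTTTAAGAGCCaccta
Hist1h4i, chr13:22040961-22040986, minus strand: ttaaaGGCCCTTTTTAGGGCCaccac
Hist1h4d, chr13:23581945-23581970, plus strand: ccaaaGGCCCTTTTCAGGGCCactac

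What follows the stem-loop differed among these genes. The annotated model ran on for 840 bases after the printed Hist1h1c element, for 1643 bases in Hist3h2a, for 330 bases in Hist1h4i and for 74 bases in Hist1h3c. Hist2h2be on chromosome 3 (chr3:96221119-96223738) and the 2-exon gene Hist1h2bc (chr13:23684199-23692908) have no such element in their models. Of the 63 members, 37 have models that end within 150 bases of the stop codon (short models) and 26 have longer ends (long models). A poly(A) signal stood in the last 50 bases of 14 long and 2 short models. The division was chosen with the values known. Hist1h2bp, just inside it at 150 bases, had a mean of 0.29 size-factor-normalised reads in the 30 libraries with over 20 M reads, and Hist1h4a, just outside at 154 bases, had 0.09. Short models had a median GC content of 61.0% and a median length of 473 bases, against 49.9% and 1255 bases for long models.

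The start regions of 3 members with long models are shown because Hist1h1c and Hist3h2a moved together over the wild-type time course and Hist1h4i stood lower in day 4 dEx1A cells. They run from 250 bases before to 50 bases after the start, are taken from RefSeq on GRCm38.p6, and have CCAAT, read on either strand, and the TATA motif TATAAA in capitals.
Hist1h1c, chr13:23738557-23738856, plus strand: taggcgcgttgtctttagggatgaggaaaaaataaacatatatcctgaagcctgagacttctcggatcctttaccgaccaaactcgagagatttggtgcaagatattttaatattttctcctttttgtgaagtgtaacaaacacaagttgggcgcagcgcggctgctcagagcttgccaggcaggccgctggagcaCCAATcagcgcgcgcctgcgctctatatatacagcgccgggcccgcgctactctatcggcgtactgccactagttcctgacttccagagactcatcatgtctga
Hist3h2a, chr11:58954435-58954734, plus strand: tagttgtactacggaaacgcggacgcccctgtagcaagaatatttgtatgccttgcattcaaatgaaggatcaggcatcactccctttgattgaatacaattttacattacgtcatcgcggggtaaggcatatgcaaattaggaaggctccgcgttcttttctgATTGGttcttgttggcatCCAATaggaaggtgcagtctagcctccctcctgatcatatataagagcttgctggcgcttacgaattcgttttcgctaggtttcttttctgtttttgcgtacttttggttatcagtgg
Hist1h4i, chr13:22041313-22041612, minus strand: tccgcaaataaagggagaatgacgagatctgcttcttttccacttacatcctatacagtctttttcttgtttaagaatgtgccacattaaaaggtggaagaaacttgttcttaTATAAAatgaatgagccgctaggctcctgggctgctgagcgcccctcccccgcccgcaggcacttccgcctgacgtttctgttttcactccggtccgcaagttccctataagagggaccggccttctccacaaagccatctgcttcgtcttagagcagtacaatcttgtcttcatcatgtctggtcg

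Both motifs were searched on both strands, and they do not overlap each other. CCAAT was found in 84.7% of the 59 promoters of the 58 members with a RefSeq entry, against 37.4% of all 32851 promoters of the same length. TATAAA was found in 54.2% of the member promoters and in 13.6% of all. The motif shares of long and short models lay close to each other, at 87.0% and 83.3% for CCAAT and at 47.8% and 58.3% for TATAAA. A match describes the letters of the window and is not a measured binding site.

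Libraries held 15.14 to 35.53 M recovered reads, with a median of 23.23 M. Clustered histone genes made up 19.45 to 177.81 reads per M reads, with a median of 62.41. The 15 libraries under 20 M reads were the wild-type LPS groups at both days and the 3 dEx1A groups of day 7, and the other 30 held 20.25 to 35.53 M. This division at 20 M reads, made after the data were seen, matters for the short models. Their summed reads were 0.00 to 2.39 reads per M reads in the 30 deeper libraries (median 0.46) and 2.81 to 32.93 reads per M reads in the 15 shallower ones (median 9.38), without overlap. Reads on 5 RNAs that carry no poly(A) tail, a list chosen after the data were seen, moved the same way, at 0.8 to 414.8 normalised reads (median 27.2) and 298.6 to 6732.7 (median 735.6). Replicate 2 of wild-type LPS day 4 stood apart from its group, with 609 reads on short models against 172 and 126, and 6732.7 normalised reads on those 5 RNAs against 321.3 and 298.6. The 2 sets also differed in GC content: the median offset of GC-rich over GC-poor coding genes from their means was −1.93 to 0.61 (log2) in the deeper set and 0.74 to 1.72 in the shallower set. The part of these features in any histone result that compares the 2 sets was not tested.

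**Figure D1:**
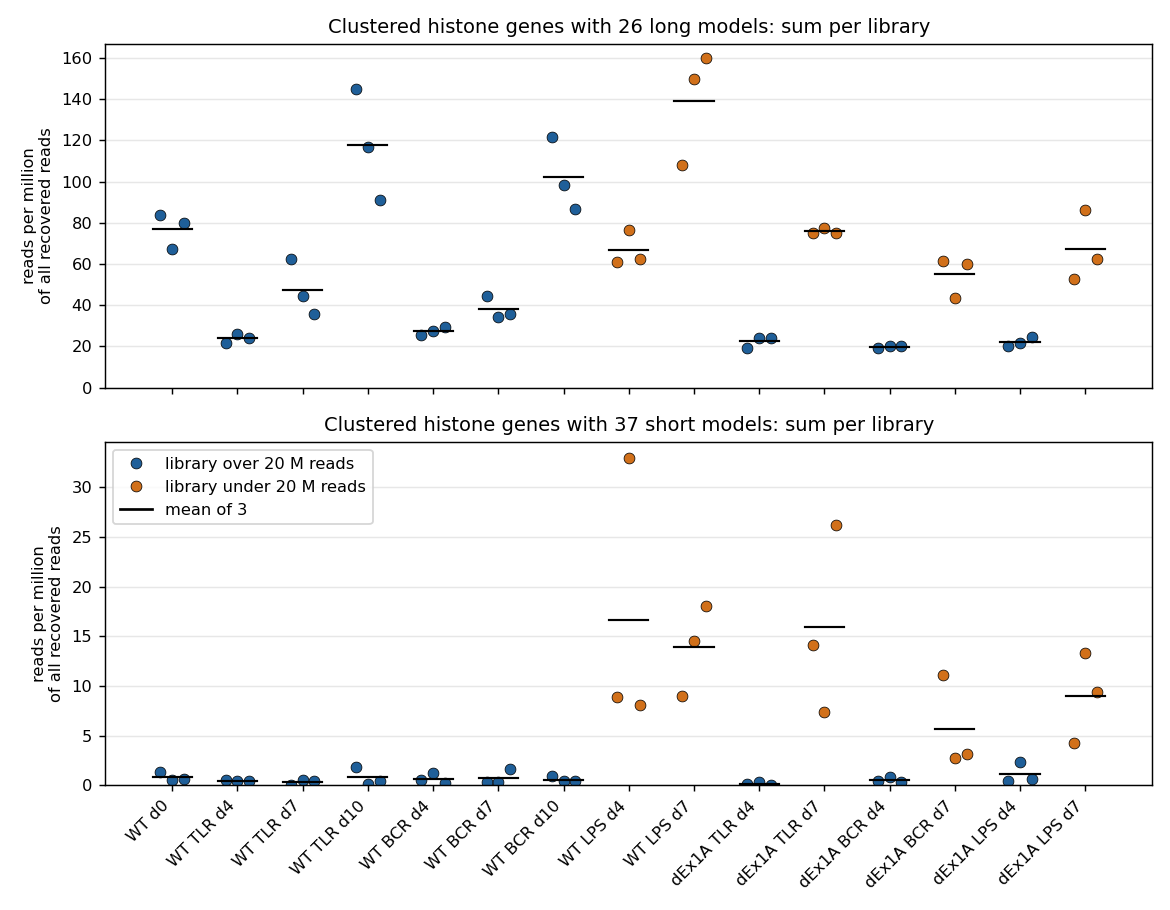
Reads per M of all recovered reads on the 26 long models (top) and the 37 short models (bottom) of clustered histone genes, 1 point per library and a bar for the mean of 3, with the colour giving the depth set. The short models lie between 0.00 and 2.39 in the 30 deeper libraries and between 2.81 and 32.93 in the 15 shallower ones.

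Few members carried most reads. Hist1h1c, which encodes a somatic H1 variant, Hist3h2a (an H2A gene), Hist2h2be and Hist1h2bc (both H2B genes) together took 61.7% to 91.5% of the family's normalised reads in the 30 deeper libraries and 41.1% to 79.9% in the 15 shallower ones. Hist1h1c alone took 12.6% to 80.9%. Per kilobase of model, the mean level in the deeper libraries was 495.85 normalised reads for Hist1h1c, 98.52 for Hist1h2bc, 65.79 for Hist1h4i, 62.83 for Hist3h2a and 46.56 for Hist2h2be. In the shallower libraries Hist2h2aa2 came to 162.49 per kilobase and Hist1h2bg to 96.12, behind Hist1h1c at 747.81. Of 63 members, 52 had a higher mean in the shallower set, among them 36 of the 37 short models. The median short model had 0.21 normalised reads in the deeper set and 4.43 in the shallower, and the median long model 7.40 and 11.97. Hist1h2bq, Hist1h2br, Hist2h2aa2 and Hist2h3c1 share nearly all their sequence with another gene (under 1% of their 76-base reads would be unique), so how reads were split over them is uncertain. Exons of 22 members overlap another gene, Hist3h2a among them with Trim17 on its own strand. Hist1h1c, Hist1h1d, Hist2h2be, Hist1h2bc and Hist1h4i overlap none.

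**Figure D2:**
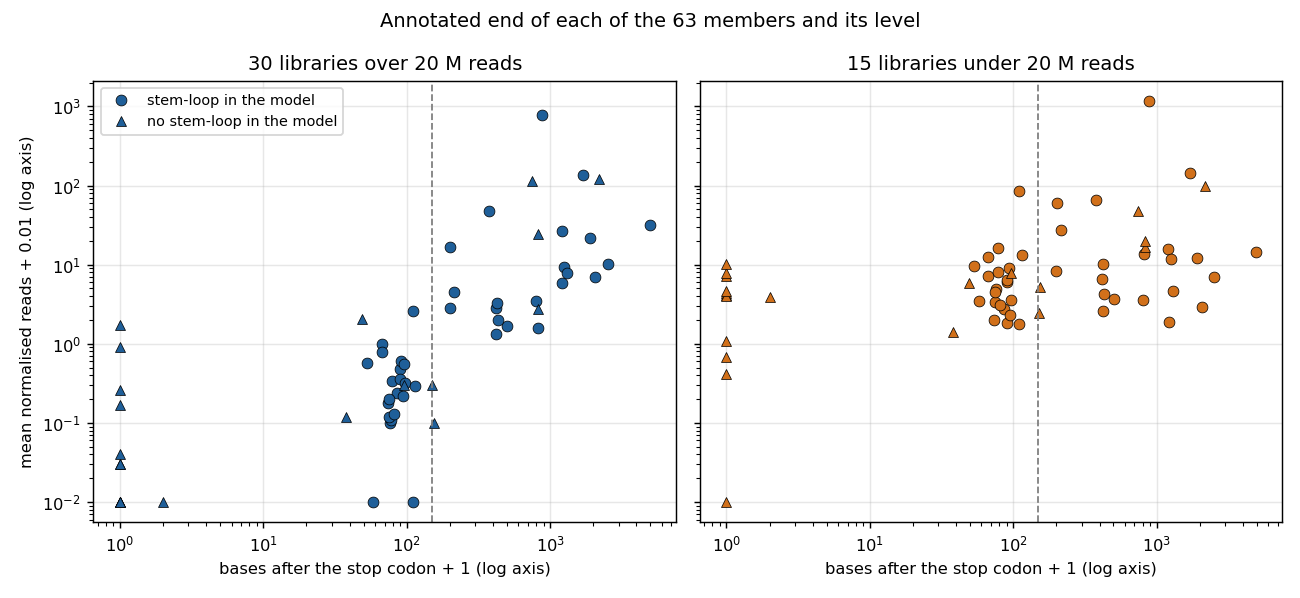
Mean normalised reads of each of the 63 members plus 0.01 (log axis) against the number of annotated bases after the stop codon plus 1 (log axis), in the 30 deeper and the 15 shallower libraries, with a dashed line at 150 bases. The short models left of the line had a median of 0.21 normalised reads in the deeper libraries and 4.43 in the shallower ones.

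**Figure D3:**
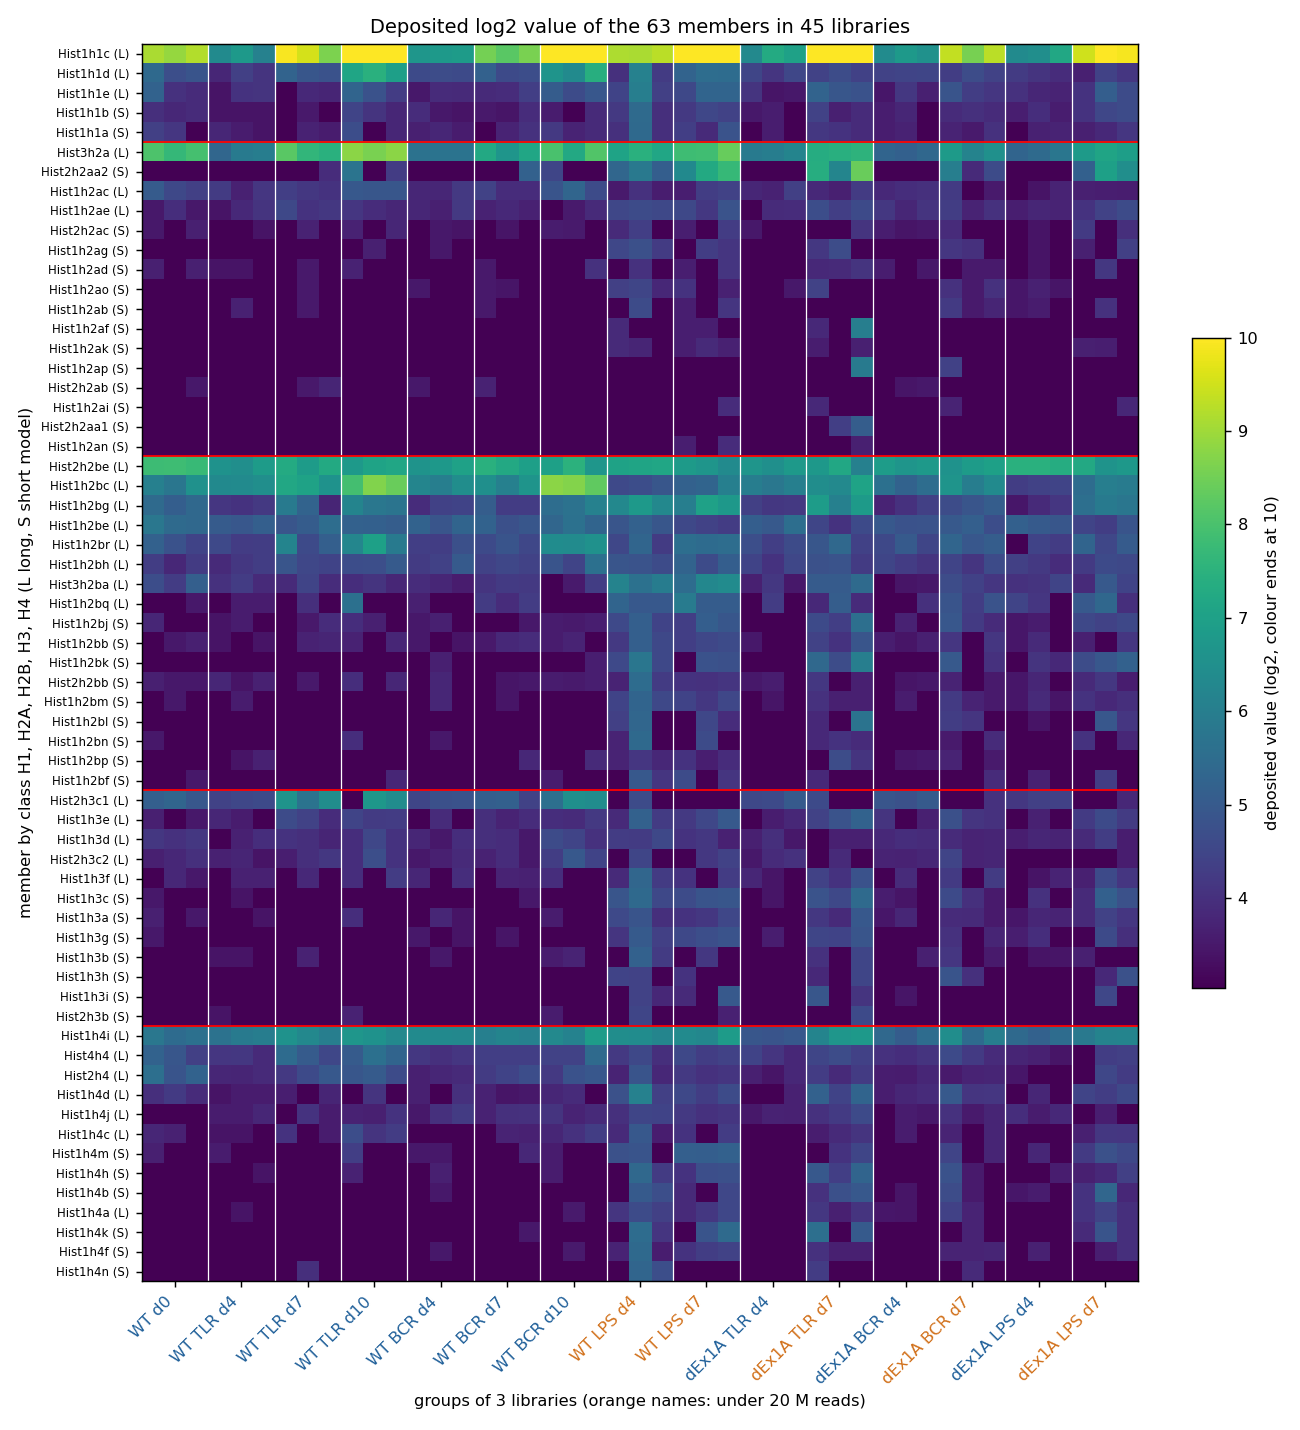
Deposited log2 value of each of the 63 members (rows of the picture, by class, L for long and S for short models) in each of the 45 libraries (columns, in groups of 3), with the colour scale ending at 10. Hist1h1c stands out in most groups, and the short models gain colour in the 15 shallower libraries.

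Neighbours that are transcribed away from a shared start region differed widely in level. Among 10 such pairs, Hist1h2ac and Hist1h2bc lie 250 bases apart and had 2.83 and 98.52 normalised reads per kilobase in the deeper libraries. Hist2h2ac and Hist2h2be lie 238 bases apart and had 1.05 and 46.56. Hist1h2ae and Hist1h2bg, 175 bases apart, had 4.01 and 27.22. The H2B gene had the higher level per kilobase in 9 of the 10 pairs, and in the other, Hist1h2bf and Hist1h2ad, the levels were 0.41 and 0.83. Several of these pairs held under 1 normalised read on both sides.

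In the wild-type TLR culture, levels of Hist1h1c and Hist3h2a fell from day 0 to day 4, then rose to day 7 and again to day 10. Other leading members took other courses, given below. The test was limma on the deposited log2 values over all 21 libraries of the wild-type table, with Benjamini-Hochberg adjustment over all genes tested and a threshold of 0.05. A gene was tested if at least 3 libraries stood 1 or more above the value of 0 reads, which 25 of the 63 members did (23 long, 2 short). Between day 0 and day 4, 8 of 25 members fell (32.0%, against 23.5% of all genes) and 1 rose (4.0%, against 25%). The share that fell is near that of all genes. From day 4 to day 7, 8 rose (32.0%, against 17.8%) and 0 fell (18.7% of all genes fell; the other 17 members missed the threshold in either direction). From day 7 to day 10, 5 of 25 rose (3.51% of all genes) and 0 fell (4.71%). The groups of every called member did not overlap, which was looked at in called members only and adds no support to the calls. Leaving out 1 library moved these counts most for day 0 replicate 1 in the first step (5 calls), for day 7 replicate 1 in the second (3; day 4 replicates 1 and 3 gave 5 and 4), and for day 7 replicate 3 and day 10 replicate 1 in the third (3 each). In the third step 2 were called when the fit held the compared groups alone. In bulk RNA, fewer cells of a type and less RNA per cell cannot be told apart.

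Among linker histones, Hist1h1c (chr13:23738808-23740367) moved most. Its log2 values were 9.11, 8.91 and 9.21 at day 0, 6.38, 6.81 and 6.09 at TLR day 4, 9.94, 9.55 and 8.62 at day 7, and 12.48, 11.73 and 11.42 at day 10. Every day 4 library was below every day 0 library, and every day 10 library above all others of the culture. The mean normalised reads were 525.6, 72.17, 692.1 and 3933 in that order. By limma the steps were −2.65 ± 0.32 (SE, n = 3 a group, adjusted p = 2.15e-06), 2.94 ± 0.32 (adjusted p = 1.22e-06) and 2.51 ± 0.32 (adjusted p = 0.000127). Hist1h1d (chr13:23553262-23560686), another somatic H1 gene, had values of 5.43, 4.71 and 4.86 at day 0, 3.79, 4.36 and 4.08 at day 4, 5.26, 4.90 and 4.80 at day 7, and 7.12, 7.47 and 6.97 at day 10. Its rise came mainly after day 7, at 2.20 ± 0.27 (adjusted p = 8.8e-05). Hist1h1e rose over the same interval by 1.23 ± 0.33 (adjusted p = 0.0295), on reads of 0, 3 and 2 at day 7 and 14, 9 and 3 at day 10. Hist1h1a, which belongs to dividing cells, held 10, 6 and 0 reads at day 0 and 4, 2 and 1 at day 4, and its difference of −0.26 ± 0.37 missed the threshold (adjusted p = 0.602).

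Hist3h2a led the H2A genes. Its values were 8.06, 7.67 and 7.94 at day 0, 5.35, 5.90 and 6.00 at TLR day 4, 8.22, 7.62 and 7.46 at day 7, and 8.80, 8.61 and 8.80 at day 10. The day 7 libraries overlapped those of day 0, and the day 10 libraries lay above both. The 3 steps were −2.14 ± 0.25 (adjusted p = 1.18e-06), 2.02 ± 0.25 and 0.97 ± 0.25 (adjusted p = 0.0209). The 2 leading H2B genes moved apart. Hist2h2be had values of 7.81, 7.84 and 7.73 at day 0 and 6.60, 6.49 and 6.86 at day 4, a difference of −1.14 ± 0.21 (adjusted p = 0.000194), and stood at 6.78, 7.07 and 7.16 at day 10, still below all day 0 libraries. Hist1h2bc stood at 6.06, 5.76 and 6.57 at day 0, at 7.20, 7.04 and 6.59 at day 7 and at 7.91, 8.69 and 8.42 at day 10, with a rise of 1.40 ± 0.25 over the last step (adjusted p = 0.00192). Hist1h2bg fell by 1.18 (adjusted p = 0.0148), from 25.25 to 4.944 mean normalised reads.

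H4 and H3 genes had lower levels. Hist2h4 stood at 5.57, 4.85 and 5.24 at day 0 and at 3.79, 3.77 and 3.87 at TLR day 4, a step of −1.41 ± 0.24 (adjusted p = 7.66e-05). It rose by 0.78 to day 7. Hist4h4 fell by 0.77 and then rose by 0.95. Hist1h4j was the member that rose to day 4, by 0.60 ± 0.23 (adjusted p = 0.0409), from 0 reads in all 3 day 0 libraries to 2, 2 and 4 reads, so that its fitted difference is no bound on a fold. Hist1h4i (chr13:22040636-22041362) kept to a narrow range, with values of 5.79, 5.47 and 5.61 at day 0 and 5.66, 5.90 and 5.99 at day 4. Among the H3 genes, Hist2h3c1 rose by 1.75 ± 0.63 from day 4 to day 7 (adjusted p = 0.0363), and its day 10 libraries held 0, 58 and 32 reads. It is 1 of the 4 genes with almost no unique sequence.

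Class sums compared day 10 with day 0 over whole groups. In normalised reads the sum for H1 was 2.87 higher on the log2 scale (2.51 to 3.07 when each library was left out), and in share of all reads 1.39 higher. The sums for H2A, H2B, H3 and H4 were 0.91, 0.76, 1.32 and 0.74 higher in normalised reads but −0.56, −0.69, −0.11 and −0.72 in share of all reads, so their direction turns with the scale. Total reads per size factor rose by 0.89 (log2) from TLR day 4 to day 7 and by 0.58 to day 10, and in the BCR culture by 0.44 and 0.39. Every member called in any comparison between 2 groups kept its direction as a share of all reads.

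**Figure D4:**
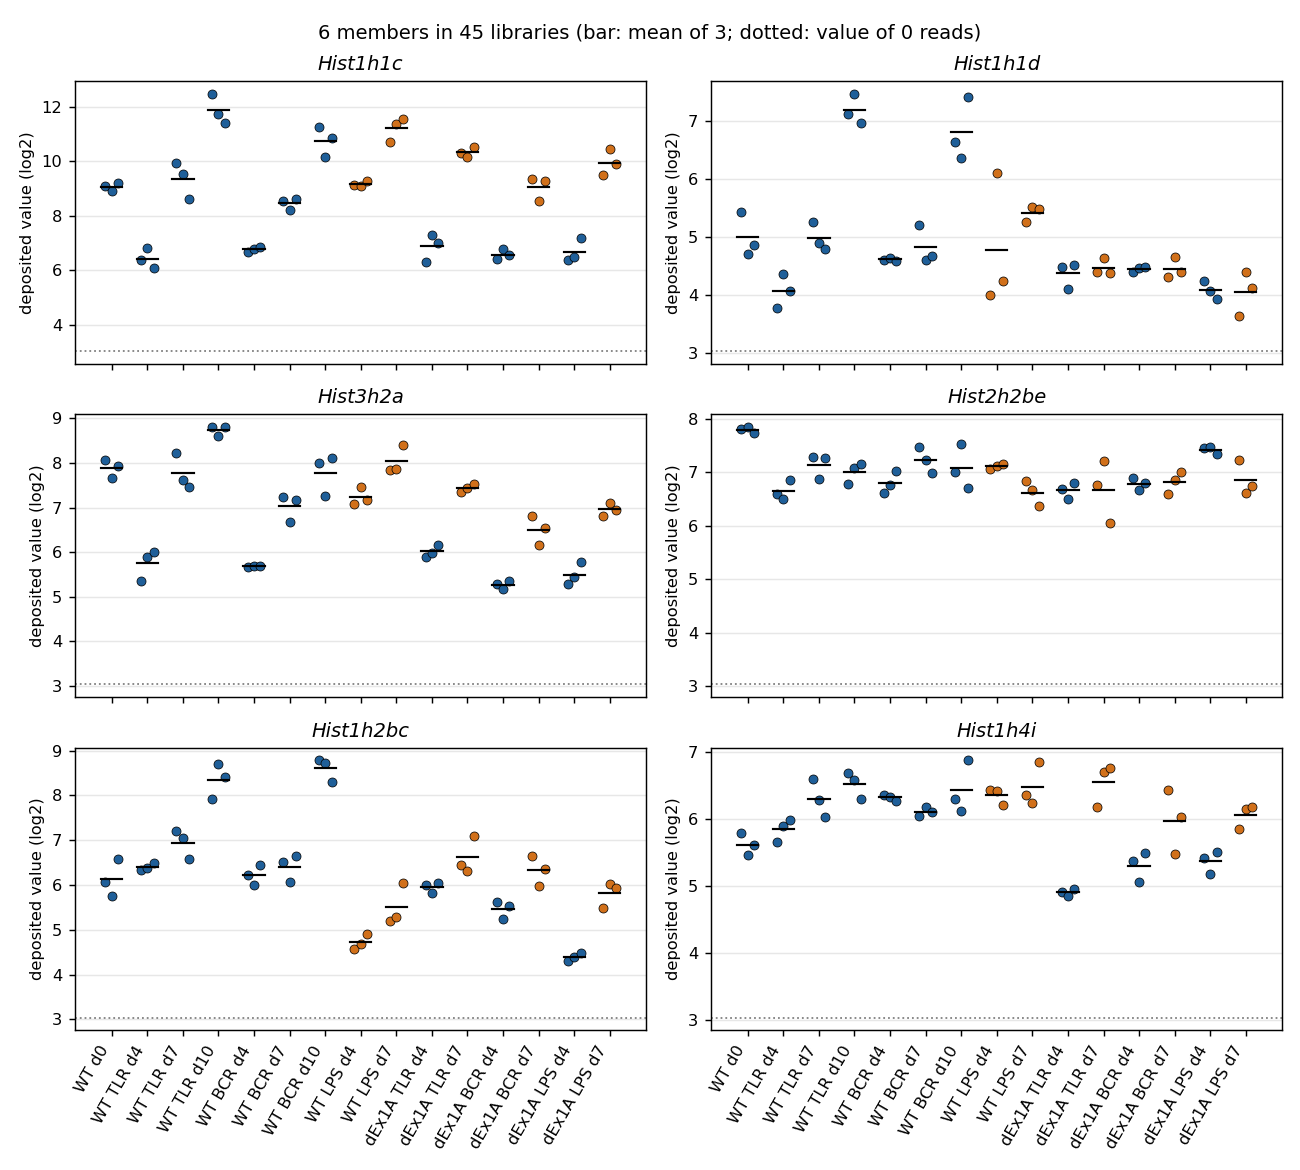
Deposited log2 value of 6 members in all 45 libraries, 1 point per library, a bar for the mean of 3 and a dotted line at the value of 0 reads, with the colour giving the depth set. In wild-type TLR and BCR cells Hist1h1c and Hist3h2a drop at day 4 and climb to day 10, Hist1h1d and Hist1h2bc climb mainly after day 7, and Hist2h2be ends below its day 0 values in the TLR culture.

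In the BCR culture Hist1h1c and Hist3h2a showed the same order of steps. Between day 0 and day 4, 8 of 25 members fell (32.0%, against 24.5% of all genes) and 2 rose (8.0%, against 26.2%). The share that fell is near that of all genes. From day 4 to day 7, 3 rose (12.0%, below the 15.3% of all genes) and 0 fell (15.3% of all genes). From day 7 to day 10, 8 rose (32.0%, against 10.8%) and 0 fell (5.94% of all genes). The count of the last step fell to 5, 4 and 5 without day 7 replicate 2, day 7 replicate 3 and day 10 replicate 2, and to 0 when only the groups compared were fitted. Hist1h1c had values of 6.69, 6.80 and 6.85 at BCR day 4, 8.55, 8.23 and 8.61 at day 7, and 11.25, 10.18 and 10.86 at day 10, with steps of −2.30 ± 0.32 (adjusted p = 1.01e-05), 1.68 ± 0.32 (adjusted p = 0.000572) and 2.30 ± 0.32 (adjusted p = 0.000227). Its 3 groups in culture did not overlap. Hist3h2a stood at 5.67, 5.68 and 5.69 at day 4, 7.24, 6.68 and 7.17 at day 7 and 7.99, 7.25 and 8.10 at day 10. Hist1h2bc rose by 2.19 ± 0.25 from day 7 to day 10 (adjusted p = 4.45e-05), from 6.52, 6.06 and 6.64 to 8.78, 8.72 and 8.29. Hist1h1d rose by 1.97 ± 0.27 over that step (adjusted p = 0.0002), from 5.21, 4.61 and 4.68 to 6.64, 6.37 and 7.41. The members that rose to day 4 were both H4 genes: Hist1h4j by 0.87 ± 0.23 (adjusted p = 0.00446; 0 reads at day 0 and 1, 5 and 11 at day 4) and Hist1h4i by 0.70 ± 0.20 (adjusted p = 0.0072). Hist1h4i stood at 6.37, 6.33 and 6.28 at BCR day 4, above all its day 0 libraries.

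The first step of both cultures starts from the same day 0 libraries, so the 2 counts are not independent. From day 4 to day 7, Hist1h1c, Hist2h4 and Hist3h2a rose in both, which is 3 of 8 in TLR and 3 of 3 in BCR. The cultures share no library in this step, but whether they share animals is not given. Deviations from the group means of same-numbered TLR and BCR libraries correlated at 0.13, 0.77 and 0.82 at day 4. At day 7 they correlated at 0.51, 0.3 and −0.04, so the later steps may not be independent either. From day 7 to day 10, Hist1h1c, Hist1h1d, Hist1h2bc and Hist3h2a rose in both, 4 of 5 and 4 of 8. Macrophage marker reads were high at day 10 in part of the libraries, at 18915.9 to 157382.7 normalised reads in BCR and 1746.2 to 48517.8 in TLR against 1710.4 to 2180.4 at day 0. Without the 3 libraries highest in these markers, an alternative chosen after the data were seen, 4 members rose in TLR, on day 10 replicates 1 and 3. BCR day 10 then kept only replicate 3, so no count is given for it. That library still held 18915.9 macrophage marker reads, against 1787.8 to 6585.9 at BCR day 7. The BCR step was 2.4 for Hist1h1c and 1.88 for Hist1h2bc in that fit. Fibroblast markers stood at 1361.8 to 4134.0 normalised reads in day 4 TLR and BCR libraries against 6.0 to 33.2 at day 0, and their part in the day 4 levels was not tested.

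Compared directly, the 2 wild-type cultures gave few calls among these genes. By limma, 0 of 25 members were called between TLR and BCR at day 4 (4.34% of all genes higher and 3.31% lower in TLR; 1 member at an unadjusted p under 0.05, and 0 by voom) and 0 at day 7 (3.78% and 2.51%; 6 members unadjusted, 0 by voom, and 1 without TLR day 7 replicate 3). At day 10 Hist1h1c was higher in TLR by 1.11 ± 0.32 (adjusted p = 0.0294), from a mean of 1802 normalised reads in BCR to 3933 in TLR, and Hist3h2a by 0.96 ± 0.25 (adjusted p = 0.0184). These were 2 of 25 (4.31% of all genes higher), with 0 lower (10% of all genes lower). Both calls were lost, and 0 members called, without TLR day 10 replicate 1, without BCR day 10 replicate 2, and when the fit held the compared groups alone. Without TLR replicate 3, 1 was called. Without the 3 macrophage-rich libraries BCR day 10 kept only replicate 3, and the differences were 1.09 for Hist1h1c and 0.7 for Hist3h2a. Over the other alternatives the adjusted p by limma or voom ranged from 0.00646 to 0.377 for Hist1h1c and from 0.00322 to 0.323 for Hist3h2a. A difference between the cultures in a member's step was not called: 0 for day 4 to 7 (0.866% of all genes higher and 0.83% lower; 2 members unadjusted) and 0 for day 7 to 10 (0% and 0.067%; 3 unadjusted), and 0 by voom in both.

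The fall of Hist1h1c, Hist3h2a and Hist2h2be at day 4 came with a rise of replication genes. In a list of 24 S phase genes, 21 rose and 1 fell from day 0 to TLR day 4, with a median difference of 1.84 against 0.01 over all genes, and 20 rose and 1 fell to BCR day 4 (median 2.32 against 0.00). The list's summed level went from 15422.3 to 15818.0 normalised reads at day 0 to 56834.1 to 64040.5 at TLR day 4, and stood at 20700.2 to 21949.0 at day 7. The summed level of all clustered histone genes went from 1115.7 to 1378.2 at day 0 down to 355.2 to 417.0 at TLR day 4. Both sums left their day 0 range without overlap, in opposite directions. The histone sum is almost wholly that of long models. Short models gave 9.8 to 22.3 of its normalised reads at day 0 and 6.7 to 9.0 at TLR day 4. It therefore does not show how the short models moved. From day 4 to day 7, 20 of the 24 S phase genes fell in TLR (18.7% of all genes) and 19 in BCR (15.3%). The largest rises were those of Tyms (4.42, thymidylate synthesis) in TLR and Rrm2 (4.81, a ribonucleotide reductase subunit) in BCR.

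Factors that make and handle histone messages moved in both directions. Of 22 genes for histone transcription and message processing, 8 rose and 3 fell to TLR day 4, and 12 rose and 3 fell to BCR day 4. Of all genes, 25% rose and 23.5% fell to TLR day 4, and 26.2% rose and 24.5% fell to BCR day 4. Slbp, whose protein binds the stem-loop, rose by 0.72 ± 0.25 in TLR (adjusted p = 0.0253) and by 1.31 ± 0.25 in BCR (adjusted p = 0.000306), and fell by 1.00 in BCR to day 7 (adjusted p = 0.00542). Npat, the coactivator of histone gene transcription, rose by 0.96 ± 0.22 in TLR (adjusted p = 0.00162) and by 1.15 in BCR (adjusted p = 0.000307), and fell by 0.90 and 1.11 from day 4 to day 7. Of 14 histone chaperone genes, 9 rose in TLR and 12 in BCR to day 4 and 0 fell in either, with Asf1b (a chaperone of newly made H3 and H4) at 2.90 and 3.16.

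Histone genes outside the clusters, which make replacement variants and polyadenylated messages, did not move as 1 group. Of the 10 tested, 5 rose and 2 fell to TLR day 4, and 3 rose and 2 fell to BCR day 4. The shares of all genes that rose and fell were 25% and 23.5% in TLR and 26.2% and 24.5% in BCR. H3f3b, a gene of the replacement variant H3.3, fell by 0.94 ± 0.20 in TLR (adjusted p = 0.000969) and by 0.85 in BCR, and rose from day 7 to day 10 by 0.78 (adjusted p = 0.0252) and 0.75. H1f0, the linker variant of differentiated cells, rose by 4.21 in TLR and 2.67 in BCR to day 4. The part of feeder fibroblast RNA in this rise was not tested. Among the 4 clustered genes listed for known polyadenylated messages (Hist1h1c, Hist1h2ac, Hist1h2bc and Hist2h2be), 3 fell and 0 rose to day 4 in both cultures. From day 7 to day 10, 2 rose in TLR (3.51% of all genes) and 3 in BCR (10.8%).

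In the wild-type LPS culture the family looked different, and its comparison with day 0 crosses the 2 depth sets. It also crosses sex and age, so that culture, depth set, sex and age cannot be told apart in it. It was fitted over the 39 libraries of the table that holds both genotypes, where 55 of the 63 members were tested. Of these, 30 passed here but not in the wild-type table, 27 of them short models, and a member that passed only through the libraries where it is high had to differ. Between day 0 and LPS day 4, 35 of 55 members stood higher (27.3% of all genes) and 7 lower (30.8%). Among short models the count was 24 higher and 0 lower of 29, and among long models 11 higher and 7 lower of 26. All 5 tested RNAs without a poly(A) tail also stood higher, with a median difference of 2.73. With values corrected for GC content and length, 9 members were higher and 9 lower. Hist1h3c, an H3 gene with a short model, held 1, 0 and 0 reads at day 0 and 16, 28 and 8 at LPS day 4 (1.76 ± 0.29, adjusted p = 6.75e-06). Hist2h2aa2 held 0 reads in all day 0 libraries and 27, 43 and 17 at LPS day 4 (adjusted p = 0.000179). Hist1h2bc went the other way, from 6.06, 5.76 and 6.57 to 4.58, 4.69 and 4.90 (−1.41 ± 0.24, adjusted p = 7.27e-06), with no overlap.

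Hist1h1c at LPS day 4 had 9.14, 9.11 and 9.28, inside or just above its day 0 range of 8.91 to 9.21. Its LPS day 7 values were 10.70, 11.37 and 11.57, higher by 2.04 ± 0.29 (adjusted p = 2.84e-05) and without overlap. From day 4 to day 7, 4 of 55 members rose (4.76% of all genes) and 1 fell (3.68%), near the shares of all genes, and both groups lie in the shallower set. The others that rose were Hist2h2aa2 (1.66), Hist3h2a (0.80) and Hist1h2bc (0.79). Hist1h4n, an H4 gene with a read in 4 of the 15 shallower libraries, was called lower (−1.31 ± 0.34, adjusted p = 0.0119) on 0, 25 and 10 reads at day 4 and 0, 0 and 0 at day 7, so that its groups overlap. The split was 1 higher and 2 lower without day 4 replicate 1, 3 higher and 0 lower without day 4 replicate 2 (the library that stood apart) or replicate 3, and 1 and 1 without day 7 replicate 3. It was 1 and 0 with only the groups compared. Hist1h1a and Hist1h1b, H1 genes of dividing cells whose sequence is wholly unique at the read length, held 4, 28 and 3 and 6, 29 and 3 reads at LPS day 4. Most of these reads lay in replicate 2, the library that stood apart.

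The genotype comparisons were first checked on Prdm1. Its level was lower in dEx1A than in wild type by −2.68 at LPS day 4, −1.40 ± 0.28 at LPS day 7 (adjusted p = 0.000949), −1.38 at TLR day 7, −1.56 at BCR day 4 and −2.15 at BCR day 7. At TLR day 4 it was not lower (0.29, adjusted p = 0.571). Exon 1A itself was not measured apart in gene-level values. Of the 6 comparisons, those at LPS day 7, TLR day 4 and BCR day 4 lie within 1 depth set.

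At LPS day 7, where sex, age and depth set match, 6 of 55 members were lower in dEx1A (3.79% of all genes were lower) and 0 higher (3.31%). The 6 are H1, H2A, H2B and H4 genes, and each had no overlap between groups. Overlap was looked at in called members only and not over all genes, so it adds no support to the calls. Hist1h1c had 10.70, 11.37 and 11.57 in wild type and 9.50, 10.46 and 9.91 in dEx1A, a difference of −1.26 ± 0.29 (adjusted p = 0.00458). Hist1h1d had 5.26, 5.52 and 5.49 against 3.64, 4.41 and 4.13 (−1.36 ± 0.31, adjusted p = 0.00415). Hist3h2a had 7.85, 7.87 and 8.39 against 6.82, 7.11 and 6.94 (−1.08 ± 0.20, adjusted p = 0.000444). The lowest wild-type library stood above the highest dEx1A library in all 3 genes. The H2B gene Hist3h2ba, Hist3h2a's neighbour on chromosome 11, had 5.51, 6.25 and 6.41 against 3.88, 4.98 and 4.45 (−1.62 ± 0.26, adjusted p = 4.88e-05). Hist1h4j held 4, 3 and 3 reads in wild type and 0, 1 and 0 in dEx1A (adjusted p = 0.00972), and Hist1h2bp held 3, 1 and 2 against 0, 0 and 0 (adjusted p = 0.0391), so both rest on very few reads. In the same comparison 0 of 24 S phase genes and 0 of 22 processing genes were called, and 0 of 5 RNAs without a poly(A) tail. Other markers differed with the histone genes. The summed level of 6 B cell markers was 107654.2 to 116195.2 normalised reads in wild type and 58586.7 to 73989.8 in dEx1A, where 1 of 6 was called lower (Cd79a, a subunit of the B cell receptor, −1.54 ± 0.35, adjusted p = 0.0036) and 0 higher. The summed level of 6 T cell markers was 85.9 to 142.0 against 30.1 to 33.2, where Lat (−1.69 ± 0.29, adjusted p = 0.000103) and Cd3g (−1.05 ± 0.31, adjusted p = 0.0291) were lower and 0 higher. The T cell markers Cd3e and Cd8a held 0 or 1 read in each of these 6 libraries. Erythroid markers went the other way, at 13.9 to 18.9 against 28.5 to 35.7, with 0 of 6 called. Their part in the histone differences was not tested. The count was 3 without dEx1A replicate 1, where Hist1h1c stood at −1.03 (adjusted p = 0.0521), 1 with only the groups compared, and 4 in a fit over the 15 shallower libraries, an alternative chosen after the data were seen. Over the alternatives the adjusted p reached 0.141 for Hist1h1c, 0.0889 for Hist1h1d, 0.0533 for Hist3h2a and 0.109 for Hist3h2ba.

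At day 4 of the TLR and BCR cultures 1 of 55 members was called in each, Hist1h4i, which was lower in dEx1A. These were 1 lower and 0 higher in TLR (3.16% of all genes lower and 4.1% higher) and 1 lower and 0 higher in BCR (0.671% and 1.19%), near the shares of all genes. In TLR Hist1h4i had 5.66, 5.90 and 5.99 in wild type and 4.91, 4.86 and 4.96 in dEx1A (−0.94 ± 0.20, adjusted p = 0.0029). In BCR it had 6.37, 6.33 and 6.28 against 5.38, 5.07 and 5.49 (−1.01 ± 0.20, adjusted p = 0.00242). At LPS day 4, which crosses the depth sets, it had 6.44, 6.42 and 6.22 against 5.43, 5.19 and 5.51 (−0.98 ± 0.20, adjusted p = 0.000405). The 3 wild-type groups and the 3 dEx1A groups of day 4 share no library, but whether cultures share animals is not given. Deviations of same-numbered libraries correlated at 0.13, 0.77 and 0.82 between wild-type TLR and BCR at day 4, so the comparisons may not be independent. No dEx1A library reached the lowest wild-type library of its culture. Overlap was looked at in called members only and adds no support to the calls. At day 7 the difference was −0.42 in LPS (adjusted p = 0.26), 0.25 in TLR (adjusted p = 0.302) and −0.13 in BCR (adjusted p = 0.608). The TLR and BCR comparisons of day 7 cross the depth sets. Each culture thus crosses them at day 4 or at day 7, so a change with time cannot be told apart from depth set. When the fit held the compared groups alone, the day 4 calls were lost in TLR (adjusted p = 0.0999) and BCR (adjusted p = 0.102). In TLR and BCR the groups also differ in sex and age.

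**Figure D5:**
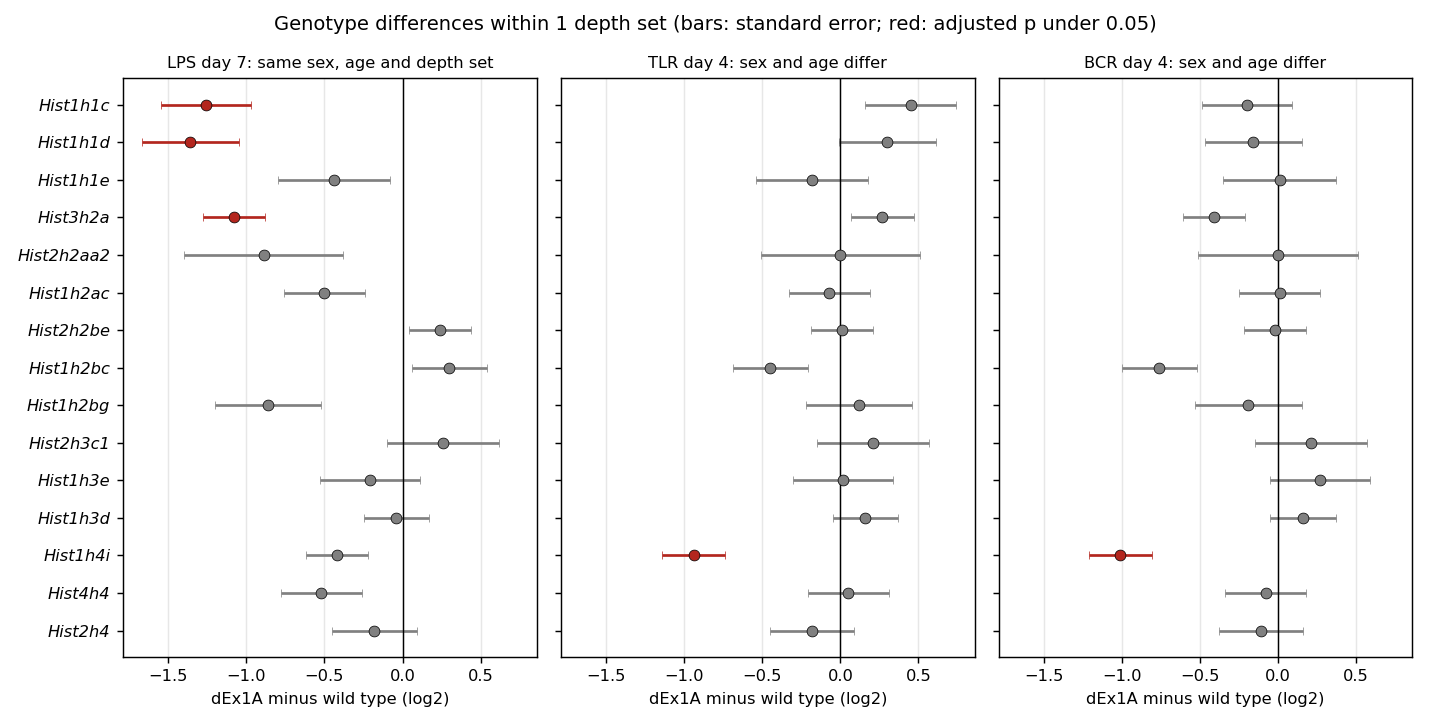
Difference between dEx1A and wild type (log2) with its standard error for the 3 members of each class with the highest mean, in the 3 comparisons within 1 depth set; red points have an adjusted p under 0.05. Hist1h1c, Hist1h1d and Hist3h2a lie below 0 at LPS day 7, and Hist1h4i is the only red point at TLR day 4 and BCR day 4.

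The other 3 genotype comparisons set a shallower group against a deeper one, and the summed reads per M of the short models were higher in the shallower group of each, without overlap. Members that passed the filter only through shallower libraries leaned towards the shallower group in advance. The counts below are therefore no test of the family. At LPS day 4, where the wild-type libraries are the shallower, 33 of 55 members were lower in dEx1A (11.8% of all genes) and 0 higher (12.6%). The count was 16 (1 higher, 15 lower) without wild-type replicate 2 and 20 (all lower) with GC content and length corrected. Hist1h2bg, an H2B gene, held 66, 95 and 52 reads in wild type and 1, 5 and 8 in dEx1A (−2.63 ± 0.34, adjusted p = 7.3e-07). Hist1h1c had 9.14, 9.11 and 9.28 against 6.38, 6.49 and 7.20 (−2.49 ± 0.29). All 5 RNAs without a poly(A) tail were lower in dEx1A too. At TLR day 7, where the dEx1A libraries are the shallower, 28 members were higher (26.2% of all genes) and 4 lower (28.7%), and with the correction 9 and 10. The count was 20 without wild-type replicate 1. At BCR day 7, 9 were higher (25.9%) and 3 lower (25%), below the share of all genes for both directions, and 1 and 2 with the correction. The BCR count was 6, 7 and 7 without wild-type replicate 1, 2 and 3, and 5 (2 higher, 3 lower) without dEx1A replicate 1. S phase genes stood higher in dEx1A at day 7 as well, with 21 of 24 in TLR and 23 of 24 in BCR.

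Within dEx1A, each step from day 4 to day 7 runs from the deeper to the shallower set. Members that passed the filter only through shallower libraries leaned upwards in advance, so these counts are no test of the family. In LPS 19 of 55 members rose (16.3% of all genes) and 3 fell (17.9%), in TLR 34 rose (29.4%) and 2 fell (32.8%), and in BCR 16 rose (26.3%) and 1 fell (27.8%). With GC content and length corrected the splits were 11 and 4, 14 and 18, and 6 and 17, so that more members fell than rose in TLR and BCR. Hist1h1c, a long model that was also high in deeper libraries, rose by 3.27 ± 0.29 in LPS, 3.46 ± 0.29 in TLR and 2.49 ± 0.29 in BCR. Its dEx1A values were 6.31, 7.30 and 7.02 at TLR day 4 and 10.32, 10.16 and 10.53 at TLR day 7. They were 6.41, 6.77 and 6.55 at BCR day 4 and 9.36, 8.56 and 9.29 at BCR day 7. In all 3 dEx1A cultures the day 7 libraries lay above every day 4 library of this gene. The count in BCR was 11, 11 and 10 without day 4 replicate 2, day 4 replicate 3 and day 7 replicate 1, and that in LPS was 14 without day 4 replicate 1.

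Whether the genotype difference itself changed from day 4 to day 7 was tested by an interaction term. Each term includes a comparison that crosses the depth sets, so the same limit of the filter holds for its counts. In LPS 5 of 55 members changed upwards (3.31% of all genes) and 0 downwards (2.18%), in TLR 18 upwards (24.4%) and 2 downwards (25.1%), and in BCR 2 upwards (16.4%) and 1 downwards (17.5%). With GC content and length corrected, the TLR split turned to 3 upwards and 9 downwards, the LPS split was 1 and 0 and the BCR split 1 and 1. Hist1h4d, whose stem-loop has the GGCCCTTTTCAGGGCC form, changed by 1.72 ± 0.45 in LPS (adjusted p = 0.0195), on 14, 53 and 6 reads in wild type and 0, 4 and 0 in dEx1A at day 4, and 7, 5 and 7 against 6, 5 and 8 at day 7. Its groups overlapped at day 7 and not at day 4, where the wild-type libraries belong to the shallower set. Without 1 library the LPS count, all upwards but for 1 downward call without wild-type day 4 replicate 2, was 1 (dEx1A day 4 replicate 1 or dEx1A day 7 replicate 3), 2 (wild-type day 4 replicate 2, wild-type day 7 replicate 1 or dEx1A day 7 replicate 2), 3 (wild-type day 7 replicate 2) or 8 (dEx1A day 7 replicate 1). The BCR count was 5 without dEx1A day 4 replicate 2 or dEx1A day 7 replicate 2, 1 (downwards) without dEx1A day 7 replicate 1 and 7 without dEx1A day 7 replicate 3.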

How the data were processed

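RNA was extracted with TRIzol, treated with DNase, prepared by the TruSeq Stranded Total RNA protocol and sequenced on a NextSeq 500 as 76-base single reads, per the labels' protocols. The submitters' processing notes name the aligner STAR 2.6.0c, the quantifier RSEM 1.3.0, the package DESeq2 1.22.2 under R 3.5.1, and the read tools Trim Galore 0.6.0 and FastQC 0.11.8. They list mm10, GRCm38.p6 and GRCh38.p12 as builds, with no role for any. Whether counting used strand is not given there. The authors deposited 2 tables of variance-stabilised log2 values for 28196 genes, with 21 and 39 columns, of which 15 are in both with identical values. The deposited values were inverted to size-factor-normalised reads and to whole reads. Values under 20 reads came within 0.1 of a whole number in 94.3% to 100.0% of cases per library. One gene with a value below that of 0 reads was left out.

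Differences were tested with limma 3.58.1 (R 4.3.3) with a mean-variance trend, on group means over all groups of a table, for 19398 and 20279 genes at least 1 above the value of 0 reads in 3 libraries. Calls use an adjusted p under 0.05. The members and lists were chosen with earlier results of these data known. Named genes were the 3 highest members of each class, the largest called differences in each comparison, the genes of the polyadenylated list, the largest called gene of each other list, and Slbp, Npat and H3f3b. A list of testis members had 0 of 3 genes in the tables. Members named for other reasons (such as Hist1h1a, Hist1h4d and Hist1h2bp) were chosen after their values were seen. The scripts were tested on simulated data. Sequences came from RefSeq and from the given transcripts of GENCODE M21.

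Replicate numbers are shared between groups, and the labels do not say that a number marks an animal. Deviations from the group means of same-numbered libraries correlated above 0.1 in all 3 pairs in 4 comparisons: TLR against BCR at day 4 (0.13, 0.77 and 0.82) and day 10 (0.14, 0.44 and 0.33), dEx1A LPS day 7 against day 4 (0.29, 0.23 and 0.17), and dEx1A against wild-type BCR at day 4 (0.24, 0.68 and 0.44). Alternatives were the replicate block, a correction for GC content and length, only the groups compared, voom on recovered reads, other filters, and each library left out.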

Additional observations from a re-analysis of the deposited data

Results flagged for a closer look

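The genotype difference changed from day 4 to day 7 in 5 members in the LPS culture, 20 in the TLR culture and 3 in the BCR culture, each by an interaction term in limma over all genes (adjusted p under 0.05). In LPS the largest was Hist1h2bk, an H2B gene, at 2.05 ± 0.56 (adjusted p = 0.0259), on 11, 40 and 8 reads in wild type and 0, 8 and 4 in dEx1A at day 4, and 0, 10 and 8 against 8, 12 and 18 at day 7. In TLR they were Hist2h2aa2 (3.99 ± 0.72) and Hist2h3c1 (−2.91 ± 0.51), and in BCR Hist1h2bj (1.29) and Hist2h3c1 (−1.74 ± 0.51), where Hist2h2aa2 and Hist2h3c1 share nearly all their sequence with other genes. In each culture the wild-type and dEx1A libraries lie in the same depth set at 1 of the 2 days and in different sets at the other. Members that passed the filter only through shallower libraries leaned upwards in advance, so these counts are no test of the family. With GC content and length corrected, 1, 12 and 2 members were called, and the TLR split turned from 18 upwards and 2 downwards to 3 and 9. The part of depth set, GC content and RNAs without a poly(A) tail in these changes was not tested.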

How the results depend on the processing

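Of 362 alternative counts of called members over 25 comparisons, 289 came within 1.5 times the reported count. When the fit held the compared groups alone, the counts were 2 for TLR day 10 against day 7, 0 for the same BCR step, 0 for TLR against BCR at day 10, 25 (19 higher, 6 lower) for LPS day 4 against day 0, 1 for LPS day 7 against day 4, and, for dEx1A against wild type, 16 at LPS day 4 (1 higher, 15 lower), 1 at LPS day 7, 0 at TLR day 4, 0 at BCR day 4, 6 at BCR day 7 and 2 for the LPS change with time. Such fits have fewer residual degrees of freedom. With GC content and length corrected, and equally with the replicate block added to that correction, they were 5 for BCR day 10 against day 7, 1 for TLR against BCR at day 7 and 1 for its change from day 4 to day 7, 18 for LPS day 4 against day 0, and, for genotype, 20 at LPS day 4, 19 at TLR day 7, 2 at BCR day 4, 3 at BCR day 7, 1 for the LPS change and 12 (3 higher, 9 lower) for the TLR change. That correction also gave 0 higher and 10 lower for TLR day 4 against day 0, and 4 higher and 3 lower for LPS day 7 against day 4. By voom on recovered reads the LPS step from day 4 to day 7 had 2 and the LPS genotype change 8. Without the 3 macrophage-rich libraries BCR day 10 kept a single library, so no count is given for TLR against BCR there. The cause of these shifts was not tested. In share of all reads the class ratios of TLR day 10 to day 0 were 1.39 for H1, −0.56 for H2A, −0.69 for H2B, −0.11 for H3 and −0.72 for H4.

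The replicate block alone gave 9 calls for BCR day 4 against day 0, 43 for LPS day 4 against day 0, 23 for dEx1A LPS day 7 against day 4, 30 for genotype at TLR day 7, and 21 and 4 for the TLR and BCR changes. It changed no other count, and none by over 1.5 times.

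Leaving out each library in turn gave these ranges. The TLR steps had 5 to 8, 3 to 9 and 3 to 7 calls, and the BCR steps 7 to 9, 2 to 3 and 4 to 8. TLR against BCR had 0 to 0 at day 4, 0 to 1 at day 7, 0 to 3 at day 10, and 0 to 0 for both changes. The LPS steps had 31 to 41 and 2 to 5, and the dEx1A steps 14 to 23 (LPS; 14 without day 4 replicate 1), 26 to 34 (TLR) and 10 to 17 (BCR). Genotype had 16 to 36 and 3 to 6 in LPS, 1 to 1 and 20 to 31 in TLR, 1 to 1 and 5 to 13 in BCR, and 1 to 8, 17 to 26 and 1 to 7 for the changes. The class ratios ranged over 2.51 to 3.07 for H1, 0.80 to 1.02 for H2A, 0.63 to 0.86 for H2B, 0.90 to 1.75 for H3 and 0.64 to 0.98 for H4.

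For 118 differences of named members, 1613 alternatives left 1358 on the same side of the threshold, 255 past it no longer, and 0 with another direction. These differences were chosen because they were called. Fits without the filter, with the replicate block alone or with only the groups compared leave the estimate as it was. Its direction could not turn in those fits. Most short models held few reads in the deeper libraries, where all of them together had 0 to 72 reads per library. A change among most of them was therefore not detectable there. The shallower libraries had 48 to 609 such reads each, and the reason for this difference was not tested.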
